A study of Homo sapiens with 2 samples.

Results

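The sites described here are cytosines that both of 2 long-read libraries listed as converted to uracil, each at a low edit fraction. A position and strand qualified when it stood in both tables of edits and when converted reads divided by the reads of its gene came to under 0.1 in each. Of 213041 distinct positions listed in either library, 12573 were listed in both and 12265 of these met the rule. The sites were thus chosen by their edit fractions and by their presence in both tables, so these values are given as a description. The remaining 308 shared positions reached 0.1 in a library, 221 of them in both, 37 in the RBFOX2 library alone and 50 in the enzyme-only library alone.

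HEK293T cells, a human embryonic kidney line that the labels also call HEK293XT, were fixed in methanol and treated in situ with a purified enzyme, APOBEC1 joined to a nanobody against rabbit IgG. The RBFOX2 sample received a rabbit antibody against RBFOX2 before this fusion, whereas the enzyme-only sample did not, so both groups shared the fusion and its editing buffer. Total RNA was then sequenced with PacBio long reads of whole cDNA molecules, 1 library per group. There is therefore no replicate check, the comparisons are between libraries and not conditions, and no p-value is given. Intervals of shares are 95% intervals by the exact Clopper-Pearson method and reflect counting error only, because reads of PCR products are not independent molecules.

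APOBEC1 removes the amino group of cytosine in single-stranded RNA, which turns C into U, and is known to favour cytosines that follow A or U. Its natural target is the apolipoprotein B mRNA, where a partner protein and a short sequence 3' of the cytosine hold the enzyme in place. RBFOX2 is a splicing regulator whose RNA recognition motif binds UGCAUG, so that a fusion recruited to RBFOX2 meets cytosines near that hexamer.

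There were 121930 sites listed with the antibody and 103684 without it, and their genes had 2431270 and 2233434 reads in sum, with medians of 96 and 87 per gene. The table of edits listed KRT18, a keratin known from HEK293 lines, at 417 and 411 gene reads, and the neurofilament gene NEFM at 281 and 263. NEFL was at 203 and 161 reads, while VIM was listed in the RBFOX2 table only, KRT8 and PAX2 in the enzyme-only table only, and LHX1 in neither. Defining genes of blood (PTPRC), liver (ALB), fibroblasts (COL1A1), endothelium (PECAM1) and muscle (MYH7) were listed in neither table. A gene without a listed site is not in these tables, so its absence does not give its expression.

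The hg38 sequences of a few sites show the kinds of cytosine that both libraries listed. Each is written on the transcribed strand with 10 bases on either side of the cytosine, and capitals mark the cytosine with the base before and the base after it. The first group holds sites with the largest converted-read counts in both libraries, shown because their neighbouring bases varied.
PCBP2, chr12:53479791, plus strand, 3'UTR: aaaagauggACUggagcuuuu
RRP1, chr21:43797428, plus strand, coding sequence: ucagacagaUCGaggagcugc
RBM4, chr11:66639999, plus strand, coding sequence: agcuucgagCCAaguuugagg
BRK1, chr3:10126717, plus strand, 3'UTR: gugggaaguGCGgggcagucc
PRDX1, chr1:45511198, minus strand, 3'UTR: acaaggcagGCCuuuccuaca
MT-ND2, chrM:5339, plus strand, coding sequence: uccuuaaccUCUacuucuacc

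A second group carried the word UGAC, whose last base was the edited cytosine. It is shown because this word was overrepresented among the shared sites.
HMGN2, chr1:26475186, plus strand, 3'UTR: cuucuggugACUguacaguuu
ACTB, chr7:5527736, minus strand, 3'UTR: cggacuaugACUuaguugcgu
ACTB, chr7:5527710, minus strand, 3'UTR: ccuuucuugACAaaaccuaac
ACTB, chr7:5527616, minus strand, 3'UTR: uuuggcuugACUcaggauuua
H2AZ1, chr4:99948209, minus strand, 3'UTR: auugaguugACUguuuuuaaa
HNRNPC, chr14:21211033, minus strand, 3'UTR: cuuccuuugACGcuccuagua

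Another group lay within 50 nt of UGCAUG and is shown because its fractions were higher in the RBFOX2 library.
PRDX3, chr10:119167946, minus strand, 3'UTR: ggcagagugACUuaacugauc
PRDX3, chr10:119167941, minus strand, 3'UTR: agugacuuaACUgaucaugca
MTHFD2, chr2:74214793, plus strand, 3'UTR: aaaagaaaaACUgcauguuaa
POLR2B, chr4:57031126, plus strand, 3'UTR: ugcuuuucuUCUguaaauaua
ARF4, chr3:57571524, minus strand, 3'UTR: cuuuuguuaUCAgccugauuu
H3-3B, chr17:75778328, minus strand, 3'UTR: auguuaaugACUuguugggua

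The last group lay at the first bases of ribosomal protein mRNAs, in the 5'UTR of the canonical transcript, and is shown because its cytosines stood in runs of pyrimidines.
RPS3A, chr4:151099630, plus strand: cacuuccgcCCUuuuggcucu
RPL9, chr4:39458911, minus strand: gacguucuuUCUuugcugcgu
RPL36A, chrX:101391015, plus strand: cgguuucuuUCUuuccgcgcc
RPS14, chr5:150449735, minus strand: cccacucucUCUuuccggugu

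Shared sites were a small part of either table. Of the 118715 low-fraction sites in the RBFOX2 table they made up 10.3%, and they were 12.2% of the 100634 in the enzyme-only table. Their fractions were low even within the range the rule allowed, with a median of 0.412% of the gene's reads with the antibody (RBFOX2 library) and 0.403% without it (enzyme-only library). The middle 90% of sites ran from 0.214% to 1.60% and from 0.223% to 1.52%, and the highest fractions were 9.89% and 9.55%. Every listed fraction was above 0.2%, so these low values start at the edge of what the tables list.

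Most shared sites rested on few reads. In 7038 of them, 57.4%, the converted reads numbered 1 in each library, and 2536 (20.7%) had at least 2 in both. Only 157 sites had at least 10 converted reads in both libraries. Genes with a shared site had a median of 337 reads (RBFOX2) and 301 reads (enzyme-only), counted over sites. The study itself took edits seen in every one of its samples as putative variants and left them out. Whether a single converted read came from the enzyme, a sequence variant or a read error was not tested, and no library without the enzyme was analysed here.

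Near the threshold, the member with the largest fraction was in ARMC10 (chr7:103098945), with 9 of 91 reads (9.89%) in the RBFOX2 library and 8 of 87 (9.20%) in the enzyme-only library. Just outside it lay a site in ZC3HC1 (chr7:130018655), with 12 of 146 reads (8.22%) and 12 of 120 (10%). The larger of the 2 fractions lay between 0.09 and 0.1 in 11 members, and between 0.1 and 0.11 in 11 excluded sites.

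The base directly 5' of the cytosine set the shared sites apart from the sites of a single library. A preceded 50.2% of them and U 35.2%, while C preceded 8.36% and G 6.23%. Together A and U came to 85.4% (95% interval 84.8 to 86.0) in sites listed in both libraries. Among low-fraction sites listed in the RBFOX2 library only, the share was 71.7% (71.4 to 72.0), and among those of the enzyme-only library only it was 63.9% (63.5 to 64.2). The exonic cytosines of the same genes, weighted by the number of shared sites per gene, followed A or U in 47.2%. Only 37 shared sites had a deposited confidence score of at least 0.5 in both libraries, and 45.9% (29.5 to 63.1) of these followed A or U. The study's short-read pipeline kept sites with a score above 0.5, whereas its long-read methods name no such filter.

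A was the base that separated the sets, since U preceded 35.9% of the RBFOX2-only sites and 33.4% of the sites listed in the enzyme-only library only. A stood before 35.8% and 30.4% of these sites, both below the 50.2% of the shared sites.

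**Figure D1:**
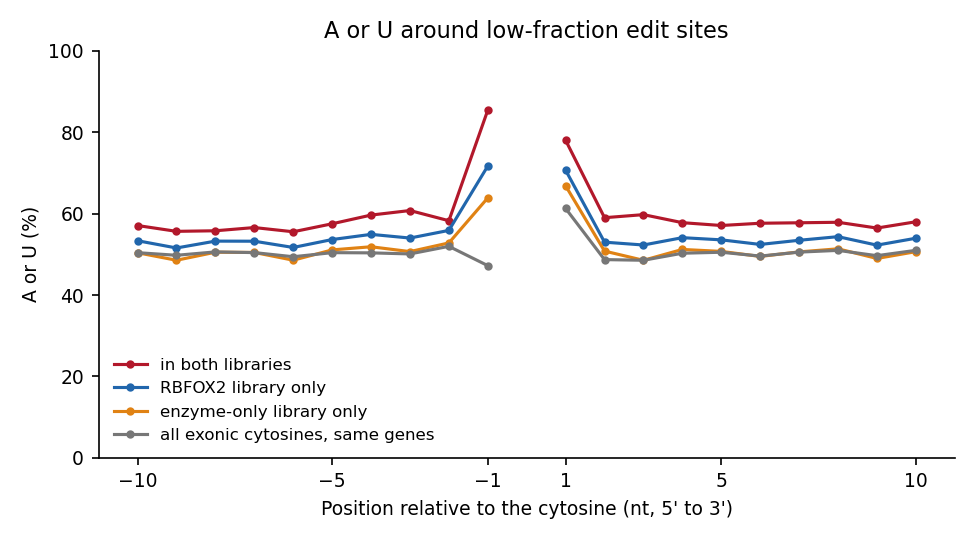
Share of A or U (%) at each position from 10 nt before to 10 nt after the cytosine, for low-fraction sites in both libraries (red, 12265 sites), in the RBFOX2 library only (blue), in the enzyme-only library only (orange) and for the exonic cytosines of the genes with shared sites (grey). Shared sites peak directly before the cytosine at 85.4% and stay above the other sets at every other position shown.

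Directly 3' of the cytosine, U stood at 51.2% of shared sites, against 42.5% of the sites in the RBFOX2 library only, 41.3% of those in the enzyme-only library only and 31.5% of exonic cytosines. The triplet ACU alone held 26.2% of shared sites (3209 of 12265), 3.87 times its share of 6.77% among exonic cytosines. It accounted for 14.8% and 12.05% of the sites of a single library. The gap to the RBFOX2-only sites was not kept at larger counts of converted reads. Shared sites were classed here by the smaller of their 2 counts and RBFOX2-only sites by their RBFOX2 count. ACU held 24.3% of shared and 13.2% of RBFOX2-only sites at 1, 33.1% and 33.4% at 5 to 9, and 26.8% and 35.3% at 10 or more. UCU followed with 16.6% and ACA with 16.4% of shared sites. A or U was also more frequent farther out: 3 nt before the cytosine the shared sites had 60.8%, against 50.1% of exonic cytosines, and U alone stood there in 36.9%.

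Among the words formed by the cytosine and the 3 bases before it, UUUC was the most frequent, with 1107 shared sites, and UGAC came next with 914. UGAC made up 7.45% of shared sites (95% interval 6.99 to 7.93) and 1.58% of exonic cytosines, a ratio of 4.72. In the sites of a single library its share was 3.61% for RBFOX2 and 2.91% for enzyme-only. With U after the cytosine, UGACU held 3.80% of shared sites and 0.506% of exonic cytosines, a ratio of 7.52. Both words were examined after the counts of words had been seen.

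Cytosines with pyrimidines at all 3 bases on both sides made up 6.26% of shared sites, against 3.67% of exonic cytosines. The corresponding shares were 4.90% in the sites of the RBFOX2 library only and 5.44% in those of the enzyme-only library only. UGAU, the start of the sequence that positions APOBEC1 on the apolipoprotein B mRNA, began 3 to 8 nt after the cytosine at 2.92% of shared sites (2.63 to 3.23). This lay near the 2.59% and 2.47% of the sites in a single library and the 2.40% of exonic cytosines.

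Shared sites lay mostly in 3'UTRs and coding sequence. With a position annotated in several ways counted as coding sequence first, 6315 sites (51.5%) were in 3'UTRs and 5338 (43.5%) in coding sequence. Another 322 were in 5'UTRs, 171 in non-coding exons, 97 in introns and 22 in no annotated gene. The 3'UTR share was 41.6% in sites of the RBFOX2 library only, 35.5% in those of the enzyme-only library only and 29.8% among exonic cytosines of the genes. Coding sequence held 49.8%, 54.4% and 38.7% of these sets, so its share in shared sites was also above that of exonic cytosines. Counting 3'UTR before coding sequence raised the 3'UTR share of shared sites to 68.0%, against 60.3% and 54.8% for the sites of a single library.

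**Figure D2:**
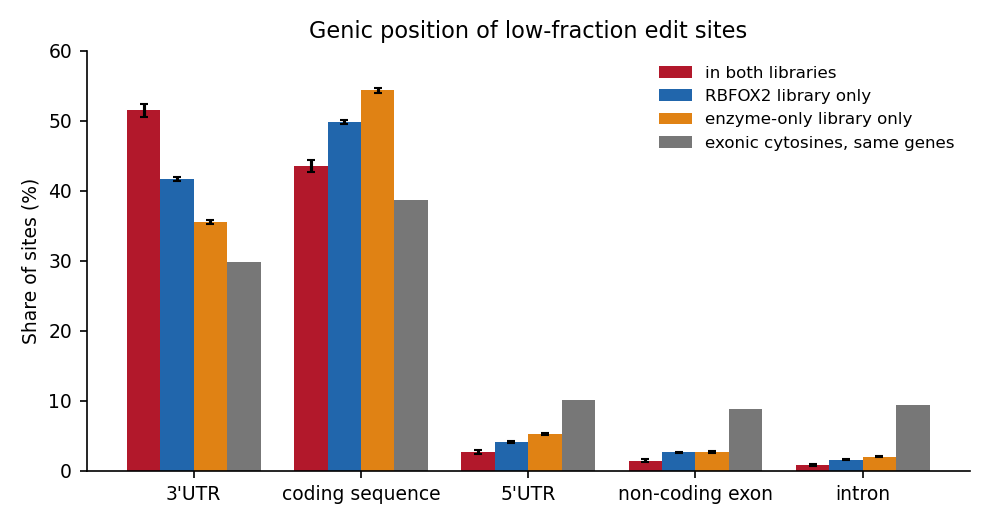
Share of sites (%) by genic position for low-fraction sites in both libraries, in the RBFOX2 library only and in the enzyme-only library only, with exact 95% intervals, and for the exonic cytosines of the genes with shared sites. The 3'UTR bar is highest for shared sites (51.5%), and the 5'UTR, non-coding exon and intron bars of the 3 sets of sites lie below those of exonic cytosines.

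Exons of the deposited isoform models held 12156 of the shared sites, and 49 sites belonged to a locus without a model. In the coding sequence of canonical transcripts, a change of C to U would have been synonymous at 47.1% of 5209 shared sites, against 40.9% of the coding cytosines of the same genes. It would have been missense at 47.2%, against 51.6%, and would have made a stop codon at 300 sites (5.76%), against 7.59%. The third codon position held 39.2% of shared sites and 34.9% of coding cytosines. The sites of a single library lay close to the shared sites here, with 45.5% synonymous in the RBFOX2 library only and 46.1% in the enzyme-only library only.

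UGCAUG lay within 50 nt on the same strand of 545 shared sites, 4.44% (95% interval 4.09 to 4.82). The share was 3.97% (3.85 to 4.09) in sites of the RBFOX2 library only and 2.34% (2.24 to 2.44) in those of the enzyme-only library only. Exonic cytosines of the genes with shared sites had it near in 2.63%, so that the shared sites stood at 1.69 times that level. At larger counts of converted reads the order of shared and RBFOX2-only sites turned, but the classes were unlike. Shared sites were classed by the smaller of their 2 counts and RBFOX2-only sites by their RBFOX2 count. A shared site well read in the RBFOX2 library alone thus falls in a low class. Counted by converted reads in all, 44 of the 679 shared sites with at least 10 were near the hexamer. With 1 converted read, or a smaller count of 1, the hexamer was near 4.31% of shared sites and 3177 of 90840 sites of the RBFOX2 library only, a smaller share. At 3 to 4 it was near 4.87% (3.42 to 6.71) and 7.78% (6.95 to 8.67), at 5 to 9 near 3.52% and 12.5%, and at 10 or more near 3.18% (1.04 to 7.28) and 13.5% (9.65 to 18.1). No shared site was a cytosine of the hexamer itself. Taking 3 counts as the limit that a count of 0 allows, the share is up to 0.0245% of 12265.

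These differences were also compared in genes of like depth, because shared sites lay in genes with more reads. In genes with under 100 reads in a library, A or U preceded 80.0% of 903 shared sites, 72.5% of the sites of the RBFOX2 library only and 65.9% of those of the enzyme-only library only. In genes with at least 500 reads the shares were 90.7% of 1750, 87.8% and 76.7%. UGAC and the 3'UTR were likewise more frequent in shared sites in all 4 depth classes. UGCAUG within 50 nt was not: in genes of at least 500 reads it was near 4.29% (3.39 to 5.34) of shared sites and 5.72% (5.24 to 6.23) of the sites of the RBFOX2 library only.

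Listing in the other library rose with the converted reads of a site and depended on the base before it. Counting listings at any fraction, the enzyme-only table held 8.01% of the low-fraction RBFOX2 sites with 1 converted read and 54.4% of the 603 with at least 10. In the other direction, the RBFOX2 table held 10.03% and 84.8% of the enzyme-only sites of those classes. The same share grew with gene reads, from 3.38% of RBFOX2 sites in genes of under 100 reads to 19.4% in genes of at least 500.

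By the base before the cytosine, 13.9% of RBFOX2 sites after A and 10.2% after U were listed again, against 5.89% after C and 5.41% after G. In the enzyme-only library these shares were 18.7%, 12.8%, 5.32% and 5.39%. Sites in UGAC were listed again in 19.2% and 26.3%. The order by base turned around at high counts. At 1 converted read, 9.54% of RBFOX2 sites after A or U and 4.45% of those after C or G were listed again. At 10 or more, 73 of 74 sites after C or G (98.6%) were in the enzyme-only table too, but 255 of 529 sites after A or U (48.2%).

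**Figure D3:**
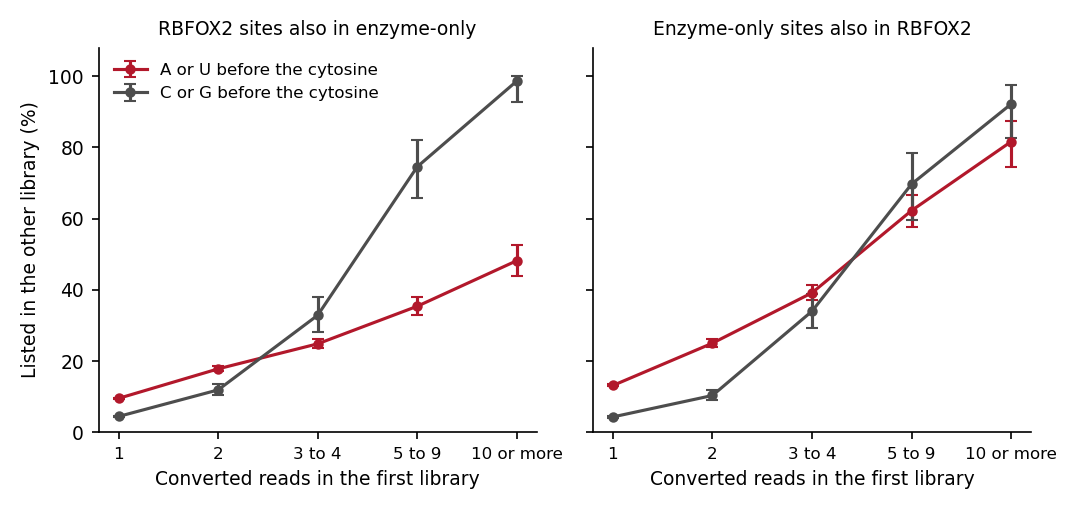
Share (%) of the low-fraction sites of a library that the other library also listed, by converted reads in the first library and by the base before the cytosine, with exact 95% intervals. In the RBFOX2 panel the sites after C or G cross above those after A or U from 3 to 4 converted reads onward and reach 98.6%, and in the enzyme-only panel the points of 5 to 9 and of 10 or more lie closer together.

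The same change showed within the shared sites when they were ordered by the smaller of their converted-read counts. A or U preceded 85.1% of sites with a smaller count of 1 and 90.1% of those with 2. It then preceded 86.6% at 3 to 4, 79.9% at 5 to 9 and 69.4% (61.6 to 76.5) of the 157 sites with 10 or more. Sites of the RBFOX2 library only, classed by their RBFOX2 reads, went the other way, from 68.9% at 1 converted read to 274 of 275 (99.6%) at 10 or more. G followed the cytosine in 7.53% of shared sites with a smaller count of 1 and in 19.7% of those with 10 or more.

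**Figure D4:**
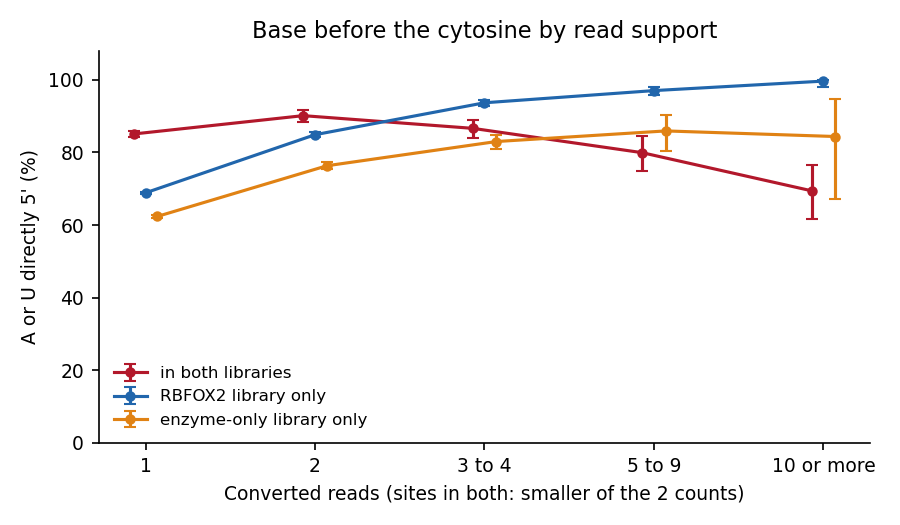
Share (%) of low-fraction sites with A or U directly before the cytosine, by converted reads, with exact 95% intervals. For sites in both libraries the class is the smaller of the counts, and their share drops from 90.1% at 2 to 69.4% at 10 or more, while that of sites in the RBFOX2 library only climbs to 99.6%.

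UGAC and the 3'UTR were more frequent at larger counts than at 1. UGAC held 6.52% of shared sites with a smaller count of 1, 10.3% at 2, 11.3% at 3 to 4, 13.7% at 5 to 9 and 11.5% (6.94 to 17.5) at 10 or more. It rose in the sites of the RBFOX2 library only as well, classed by their RBFOX2 reads. There it held 3.19% at 1, 9.72% at 5 to 9 and 10.2% (6.87 to 14.4) at 10 or more. The 3'UTR held 49.2% of shared sites at 1, 64.9% at 3 to 4, 59.2% at 5 to 9 and 60.5% (52.4 to 68.2) at 10 or more. Classed by their RBFOX2 reads, sites of the RBFOX2 library only had 39.4% at 1 and 59.9% at 3 to 4. They lay above the shared sites with 70.8% at 5 to 9 and 81.8% (76.7 to 86.2) at 10 or more. The 5'UTR held 2.50% at 1 and 6.37% of the sites with 10 or more.

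The fractions of the 2 libraries correlated across shared sites, with a Spearman rho of 0.66 over 12265 sites. Sites share libraries and genes, and with 1 converted read in both the fraction is only the inverse of the gene's reads. In those 7038 sites rho was 0.96, the same as that of the gene reads alone, so it says nothing of editing. Over the 2536 sites with at least 2 converted reads in both, rho was 0.66, and it was 0.85 over 441 sites with at least 5 and 0.92 over 157 with at least 10. Gene reads themselves correlated at 0.99 over the 441 sites, and the converted reads at 0.69.

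Sites with 5 or more converted reads in both were then divided by the base before the cytosine. The 105 after C or G had a rho of 0.94 and a median log2 ratio (RBFOX2 over enzyme-only fraction) of -0.02, with an interval from -0.17 to 0.11. The 336 after A or U had a rho of 0.76 and a median of 0.23 (0.16 to 0.34). Of the sites after C or G, 0 were at least 2-fold higher in RBFOX2 and 3 (2.86%) were at least 2-fold higher in enzyme-only. After A or U these numbers were 36 (10.7%) and 6 (1.79%).

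Within genes the converted reads agreed weakly. Of 250 genes with at least 10 shared sites, 230 had counts that varied in both libraries, and the median rho across the sites of a gene was 0.23, with quartiles of -0.06 and 0.41. It was above 0 in 159 of them. Counts of 1 or 2 reads per site left little range for such a correlation.

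Over all shared sites the median log2 ratio of fractions was -0.10, which followed the gene reads, since the sites with 1 read in both had -0.15. With at least 2 converted reads in both it was 0.04, and with at least 10 in both 0.13 (0.04 to 0.25). A fraction at least 2-fold higher was seen in the RBFOX2 library at 964 shared sites (7.86%), beside 8.1% of all 12573 positions listed in both. In the enzyme-only library it was seen at 837 (6.82%), beside 6.99%. At most of these the converted reads were few, so the 679 sites with at least 10 converted reads in all were taken for the rest. Of these, 159 (23.4%) were at least 2-fold higher in the RBFOX2 library, beside 20.4% of all positions of that class, and 26 (3.83%) in the enzyme-only library, beside 3.75%.

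Among sites with at least 10 converted reads in all, those near UGCAUG had larger ratios than the others. A site can reach that count mostly through the reads of 1 library, so the class favours unequal fractions. Over all 545 shared sites near the hexamer the median log2 ratio was -0.05, beside -0.10 over the 11720 others. Of the 545, 18.5% were at least 2-fold higher in RBFOX2 and 4.22% in enzyme-only, beside 7.36% and 6.95% of the 11720. Of the 44 shared sites with at least 10 converted reads in all and UGCAUG within 50 nt, 29 (65.9%) had a fraction at least 2-fold higher in the RBFOX2 library and only 1 in the other. Their median log2 ratio was 1.52 (95% interval 1.02 to 1.90). The 635 sites without the hexamer near had a median of 0.40 (0.33 to 0.46), and 130 (20.5%) were at least 2-fold higher in the RBFOX2 library. The 44 sites fell in 33 genes near 36 copies of the hexamer, so several shared a copy. In 3'UTRs after A or U, the median was 1.76 (1.19 to 2.29) over 35 sites near the hexamer and 0.52 (0.43 to 0.60) over 304 sites with none within 200 nt.

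**Figure D5:**
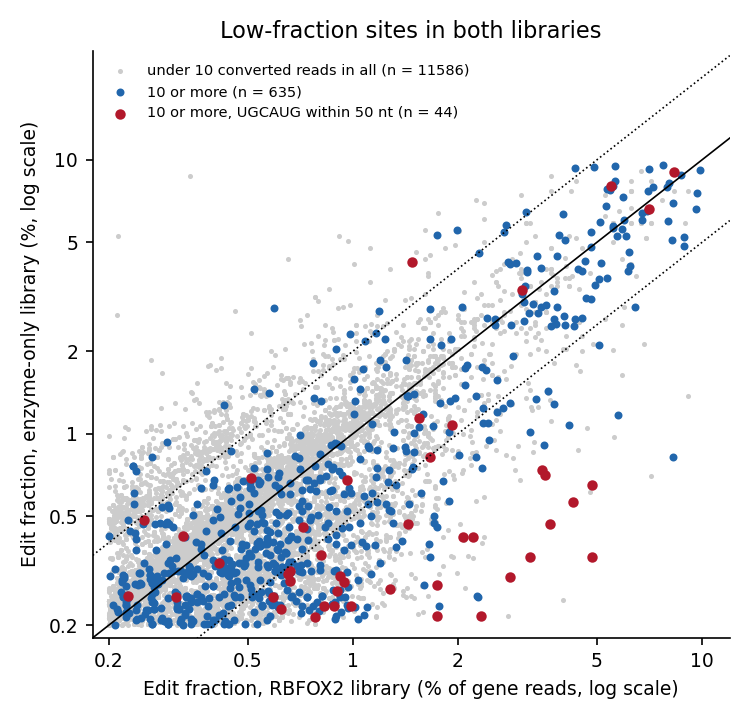
Edit fraction (% of the gene's reads, log axes) of each shared site in the RBFOX2 library (x) and the enzyme-only library (y), with sites of under 10 converted reads in all in grey, of 10 or more in blue, and of 10 or more with UGCAUG within 50 nt in red. The solid line marks equal fractions and the dotted lines a 2-fold difference, and 29 of the 44 red points lie at or below the lower dotted line.

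By distance, sites 1 to 20 nt 3' of the hexamer had a median log2 ratio of 1.22 (0.30 to 1.60, 33 sites with at least 5 converted reads in all). Those 21 to 50 nt 3' had 0.86 (29 sites) and those 1 to 20 nt 5' had 0.65 (26 sites). Between 21 and 50 nt 5' the median was 0.55 (35 sites), at 51 to 100 nt it was 0.40 on the 3' side (42 sites) and 0.64 on the 5' side (49 sites), and beyond 100 and up to 200 nt it was 0.71 on the 3' side (0.41 to 1.00, 73 sites) and 0.48 on the 5' side (63 sites). At more than 200 nt from any copy the median was 0.31 (1766 sites). The medians within 200 nt did not fall steadily with distance, and the intervals of the classes within 50 nt overlapped.

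PRDX3, a mitochondrial peroxiredoxin, had a pair of such sites 12 and 7 nt 5' of a UGCAUG. The first had 30 of 1356 reads (2.21%) in the RBFOX2 library and 5 of 1186 (0.422%) in the enzyme-only library, 5.25-fold higher, with a log2 ratio of 2.39 (1.01 to 4.11). The second had 28 and 5 converted reads, 4.90-fold higher.

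POLR2B, which encodes the second-largest subunit of RNA polymerase II, held the highest ratio among the sites with at least 10 converted reads in all. The site had 15 of 310 reads (4.84%) in the RBFOX2 library and 1 of 282 (0.355%) in the enzyme-only library, a ratio of 13.6 with a wide log2 interval of 1.07 to 9.17. The site lay 9 nt 3' of a UGCAUG, and another site of the gene, 39 nt 5' of a copy, had 10 and 1 converted reads.

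Other sites with high ratios rested on few enzyme-only reads. ARF4, a small GTPase of Golgi traffic, had 12 of 515 reads and 1 of 462 at a site 14 nt from the hexamer. MTHFD2, an enzyme of mitochondrial one-carbon metabolism, had 13 of 460 and 1 of 334 at the cytosine directly before the hexamer. GLOD4 had 11 of 483 and 1 of 395 without a copy within 200 nt. A site assigned to WASH7P had 9 of 109 and 3 of 364, but these reads are those of different loci. The locus used in the RBFOX2 library had 63 reads in the enzyme-only library, and this pseudogene has near-identical copies, so the ratio is uncertain.

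Near the hexamer CALM2, which encodes calmodulin, had 4 sites with log2 ratios between 1.07 and 2.07, and 61 converted reads in the RBFOX2 library against 13. SLC25A5, the mitochondrial ADP/ATP carrier, had 24 of 3089 reads and 6 of 2794 at a coding site, 3.62-fold higher. H3-3B, a histone H3.3 gene, had 51 of 6281 (0.812%) and 19 of 5280 (0.360%), 2.26-fold higher with a log2 interval of 0.39 to 2.02. The hexamer was also near sites with like fractions in both libraries. EIF4A1, an RNA helicase of translation initiation, had 25 of 8003 and 18 of 7088, and RBM4 had 69 of 978 and 67 of 1013.

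The lowest ratios among sites with at least 10 converted reads in all were in FOXC1, JUN, RPS14, PSMB7, PTP4A2 and MINPP1. FOXC1, a forkhead transcription factor, had 2 of 337 reads in the RBFOX2 library and 8 of 277 in the enzyme-only library. RPS14 had 5 of 2125 (0.235%) and 15 of 1959 (0.766%), 3.25-fold higher in the enzyme-only library, with a log2 interval of -3.52 to -0.17. Of these 6 sites, only that of RPS14 had an interval that left out equal fractions. None lay within 50 nt of UGCAUG, and those of RPS14 and PSMB7 were 5 and 9 nt into the canonical transcript.

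Sites in UGAC made up 18 of the 157 shared sites with at least 10 converted reads in both libraries (11.5%), beside 7.45% of all shared sites. With at least 10 converted reads in all, 94 such sites had a median log2 ratio of 0.76 (0.51 to 0.91), against 0.36 (0.27 to 0.44) for the 585 others. ACTB, cytoplasmic beta-actin, had 3 of them in its 3'UTR. The converted reads there were 79, 69 and 70 of 13433 in the RBFOX2 library and 32, 35 and 30 of 13435 in the enzyme-only library, so each fraction was 0.588% or lower. The ratios were 2.47, 1.97 and 2.33, without a UGCAUG within 200 nt.

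HMGN2, a nucleosome-binding protein, had 83 of 10607 reads (0.783%) and 54 of 8740 (0.618%) at its UGAC site. H2AZ1, a variant histone, had 36 of 6293 and 18 of 5529, and HNRNPC, an hnRNP protein that binds uridine tracts, had 26 of 4255 and 17 of 3926. The log2 intervals of these 3 sites included 0.

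By region, the sites with at least 10 converted reads in all had a median log2 ratio of 0.52 in 3'UTRs (432 sites), 0.31 in coding sequence (180) and -0.25 in 5'UTRs (37, interval -0.56 to 0.11). After A or U the median was 0.50 (538 sites), and after C or G it was 0.09 (141, interval -0.04 to 0.26).

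The 12 sites with the highest smaller count included 5 on the mitochondrial chromosome. The largest was in MT-ND2, a subunit of complex I, with 8888 of 174391 reads (5.10%) in the RBFOX2 library and 13096 of 220393 (5.94%) in the enzyme-only library. All mitochondrial genes of the plus strand shared 1 locus in these tables, so the reads below these fractions are those of the whole locus. Sites in MT-CYB and MT-ND5 had fractions between 0.468% and 0.664%. A site on the minus strand outside the annotated genes, listed under the locus of MT-ND6, had 181 of 12736 (1.42%) and 154 of 17841 (0.863%).

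PCBP2, a poly(C)-binding protein, headed the nuclear genes with 106 of 1374 reads (7.71%) and 119 of 1246 (9.55%). RRP1, a factor of ribosome assembly, had 85 of 979 (8.68%) and 73 of 831 (8.78%). BRK1, a subunit of the WAVE complex, had 60 of 745 (8.05%) and 58 of 703 (8.25%), and the RBM4 site had 7.06% and 6.61%. RBM4 has a close paralogue, so its reads are uncertain. PRDX1, a cytosolic peroxiredoxin, had 68 of 3196 (2.13%) and 55 of 3082 (1.78%). For these 5 sites the log2 interval of the ratio included 0.

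EEF1G, a subunit of translation elongation factor 1, had 91 of 5072 (1.79%) and 99 of 4707 (2.10%) at a cytosine 31 nt into the canonical transcript. RPS3A had 83 of 2687 (3.09%) and 68 of 2640 (2.58%) at the third base. Like RPS3A, 50 shared sites lay within 20 nt of an annotated transcript start, 0.408% of shared sites against 0.961% of exonic cytosines. Of the 50, 21 (42.0%) had at least 2 converted reads in both libraries, against 20.7% of all shared sites. Sites with 1 converted read are listed only in genes of under 500 reads, so this share depends on the depth of the genes.

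Ribosomal protein genes held 12 of these 50 sites, in 11 genes. The mRNAs of ribosomal proteins are known to start with a run of pyrimidines, and 12 of the 50 sites had pyrimidines at 3 bases on both sides. RPL9 had 38 of 1222 reads (3.11%) and 40 of 1151 (3.48%). RPL36A had 17 of 336 (5.06%) and 15 of 410 (3.66%). RPL5 had 30 of 3722 and 32 of 3799, both under 1%. Of the 50 sites, 7 were at least 2-fold higher in the enzyme-only library and 2 in the RBFOX2 library, where the shares over all shared sites were 6.82% and 7.86%. Ribosomal protein genes have many processed copies, and although the study's methods kept primary alignments only, counts of genes with near-identical copies remain uncertain.

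Shared sites were spread over 3514 of the 8192 loci listed in both libraries, with a median of 2 per locus. One shared site was all that 1366 loci had, while 250 loci with at least 10 held 29.9% of the sites. No symbol could be given to 32 sites, and 51 were placed under another locus in the other library, so that their fractions divide by reads of different loci. Only 2 of these 51 had at least 10 converted reads in all. With the same locus in both libraries, 158 of the 677 sites with at least 10 were at least 2-fold higher in RBFOX2 and 25 in enzyme-only, and the counts near UGCAUG stayed at 29 and 1 of 44.

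MZT1, a small component of the gamma-tubulin complex, had the most, 37 shared sites of the 84 low-fraction sites in the RBFOX2 library and the 65 in the enzyme-only library. They were 44.05% and 56.9% of those lists, 32 lay in the 3'UTR and 34 followed A or U. The best-read MZT1 site (chr13:72709938) had 11 of 469 reads and 7 of 399. The 4 best-read sites of the gene are shown because 3 of them stand in UGAC.
MZT1, chr13:72709938, minus strand, 3'UTR: guaguuaugACUuguugacau
MZT1, chr13:72709930, minus strand, 3'UTR: gacuuguugACAuuuccauua
MZT1, chr13:72709963, minus strand, 3'UTR: uggaacccaUCAguaguaaug
MZT1, chr13:72709851, minus strand, 3'UTR: ugaaaguugACAggauuucag

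LAPTM4A, a lysosomal membrane protein, had 36 shared sites, and MRPL42, a mitochondrial ribosomal protein, and DLD, the dihydrolipoamide dehydrogenase, had 31 each. NDUFA5, a subunit of complex I, and SDCBP, the scaffold protein syntenin, had 29 each. PSAT1, an enzyme of serine synthesis, had 28, all of them after A or U and 24 in the 3'UTR. OAT, CMAS, COPS8 and TFG had 27 each and SLBP, which binds the stem-loop of histone mRNAs, had 26. In the 12 genes the shared sites were between 28.4% (OAT) and 49.2% (NDUFA5) of the low-fraction RBFOX2 sites. Gene reads of these genes lay between 336 and 932 in the RBFOX2 library. Because sites with 1 converted read are listed only in genes of under 500 reads, the number of shared sites per gene depends on gene reads.

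In APP, whose 3'UTR site at chr21:25881362 lay 28 nt from a UGCAUG, 1 shared site was found, with 5 of 637 reads (0.785%) and 3 of 630 (0.476%). The RBFOX2 table listed 11 low-fraction sites of APP and the enzyme-only table listed 1. Of its 24 and 10 low-fraction sites, DEPDC1 shared 2, RBFOX2 itself had 1 of 17 and 11 with 1 converted read in each library, and DCUN1D4, OGT and PKM had none.

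Gene groups differed in the share of their low-fraction sites that both libraries listed, set beside 10.3% over all RBFOX2 low-fraction sites. SR proteins, which regulate splicing, had 35 shared sites of 144 (24.3%, interval 17.6 to 32.1), of which 30 were in 3'UTRs and 34 after A or U. High mobility group proteins, which bind chromatin, had 35 of 151 (23.2%, 16.7 to 30.7), all 35 in 3'UTRs and after A or U. The 14-3-3 proteins, which bind phosphorylated partners, had 29 of 140 (20.7%), proteasome subunits 133 of 684 (19.4%) and hnRNPs, which package pre-mRNA, 61 of 336 (18.2%).

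Lower shares of the RBFOX2 sites were found for translation factors (149 of 906, 16.4%), CCT chaperonin subunits (19 of 123, 15.4%) and cytosolic ribosomal proteins (49 of 318, 15.4%). The order differed in the enzyme-only library, where the CCT subunits had the largest share of the nuclear groups, 19 of 49 (38.8%, 25.2 to 53.8), beside 12.2% overall. Glycolytic enzymes had 16 of 118 (13.6%), tubulins and actins 21 of 176 (11.9%) and heat shock proteins 14 of 159 (8.81%, 4.90 to 14.3) of the RBFOX2 sites. The shared mitochondrial sites were all 5 of the low-fraction RBFOX2 sites in those genes and 5 of 9 in the enzyme-only library. The median log2 ratio of the shared sites was 0.45 in the 14-3-3 group and 0.39 in the high mobility group. It lay between -0.12 and 0.23 in the other 10 groups. Over all shared sites it was -0.10, and over those with at least 2 converted reads in both 0.04. That class held 23 of the 29 sites of the 14-3-3 group and 28 of the 35 of the high mobility group, against 20.7% of all shared sites. These genes differ in reads, on which both the listing of a site and its fraction depend.

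Shared sites stood close to other sites. Another shared site lay within 10 nt of 13.0% of them and within 50 nt of 36.8%. Another low-fraction site of the RBFOX2 library lay within 10 nt of 40.9% (40.0 to 41.7) of the shared sites, against 28.5% (28.2 to 28.7) of that library's other low-fraction sites. For sites of the enzyme-only library the shares were 33.2% and 24.2%. Neighbouring sites can lie on the same read, so they are not independent, and shared sites lay in genes with more reads.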

How the data were processed

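Edits from 2 PacBio libraries were analysed, 1 per group, assigned by their labels. Per the labels the libraries came from an Iso-Seq kit, whereas the study's methods name another kit and 2 replicates, and the tables could stem from a different run. The authors aligned full-length reads to hg38 and found C-to-U changes with code of their own, and which of the tool versions named in the methods apply to these tables is not given in the sources used here. They deposited, for each site, a count of converted reads, a count of all reads of the gene, an edit fraction (the first divided by the second, always above 0.002) and a confidence score, which entered 1 alternative only. Deposited isoform models, whose exon positions were used, held no expression values. Because the fraction divides by reads of the whole gene, it understates editing at positions of few isoforms, and sites with 1 converted read are listed only in genes of under 500 reads.

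A site was a distinct chromosome, position and strand, and of repeated listings the one with most gene reads was kept (105 and 92 extra listings). Bases came from hg38, and genes and regions from GENCODE 44. Shares among exonic cytosines were means, over sites, of the share among all exonic cytosines of the site's own locus. Every cytosine in the exons of the isoform models counted equally there, whatever its reads, so these shares are not those expected of edited positions. Motifs were searched on the transcribed strand of the genome. UGAC overlaps the cytosine, UGCAUG was counted within 50 nt, and its frequency among exonic cytosines stands beside it. Calculations used pysam 0.24.0, pandas 2.3.3 and scipy 1.17.1 and were checked on simulated sites. Intervals of medians came from order statistics over sites, which are not replicates.

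The named sites and genes were the 12 genes with most shared sites, the 12 sites with the highest smaller count of converted reads, the 6 highest and 6 lowest ratios among sites with at least 10 converted reads in all, the genes the study discussed, and examples near UGCAUG, in UGAC and at transcript starts, the latter chosen after their values were seen. The sites, rules and gene lists were chosen with earlier results of these data known. The study removed edits found across all its samples as putative variants, and then annotated variants. Neither step was repeated, and how many of the shared sites its first step would remove is not known here.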

Additional observations from a re-analysis of the deposited data

How the results depend on the processing

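Of 91 recomputed values, 45 kept within the error of the values given above, among them those with a cutoff of 0.05, without the mitochondrial chromosome, with sites in isoform exons only, with the same locus in both libraries (chosen after seeing the data) and with every listing of a position. With at least 2 converted reads in both there were 2536 sites, with 86.7% after A or U, 60.4% in 3'UTRs, 33.8% in coding sequence, 4.97% near UGCAUG and a median log2 ratio of 0.0412 in place of -0.0988, so that its sign turned. They held 10.7% and 3.79% of sites at least 2-fold higher in RBFOX2 and in enzyme-only, and 12.7% and 21.2% of the low-fraction sites of the 2 libraries. With a confidence score of at least 0.5 only 37 sites were left: 45.9% after A or U, 37.8% in 3'UTRs, 32.4% in coding sequence, 8.11% near UGCAUG, rho 0.18, median log2 ratio -0.0169, 0 beyond 2-fold in either direction, 0 with another within 10 nt, and 4.17% and 4.63% of the libraries' sites. Genes of at least 20 reads gave 10.7% and 12.6% of the libraries' sites. Genes of at least 500 reads, chosen after seeing the data, gave 1750 sites, 90.7%, 62.3% and 33.8% for A or U, 3'UTR and coding sequence, rho 0.37, median 0.14, 12% and 2.69% beyond 2-fold, 18.4% and 27.6% of the libraries' sites and 16% with another within 10 nt. Counting 3'UTR first gave 68.0% in 3'UTRs and 27.0% in coding sequence, and the canonical transcript, also chosen later, 42.6% in coding sequence. Windows of 20 and 200 nt gave 1.81% and 13.3% near UGCAUG. Pearson's r of log10 fractions was 0.74, and rho over sites with at least 5 converted reads in both was 0.85. Converted reads scaled by summed gene reads gave a median of -0.12, with 6.51% and 7.79% beyond 2-fold. A neighbour distance of 50 nt gave 36.8%. No paired analysis was possible because each group has 1 library and the replicate numbers differ. Depth limits most sites to 1 converted read, for which the fraction carries only the gene's reads, and the cause of the changes under other settings was not tested.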

Other observations

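UGAC sites were also read in abundant mRNAs not described above. H3-3B had, beside its site near UGCAUG, another UGAC site (chr17:75778531) with 38 of 6281 converted reads in the RBFOX2 library and 20 of 5280 in the enzyme-only library, 180 nt from a UGCAUG. HNRNPA2B1, an hnRNP protein, had one in coding sequence (chr7:26193588) with 23 of 5184 and 16 of 4913. PTMA, the acidic nuclear protein prothymosin alpha, had one in its 3'UTR (chr2:231713301) with 23 of 9274 (0.248%) and 15 of 7059 (0.212%). The log2 intervals of the ratio included 0 at these 3 sites. PTMA has processed copies in the genome, so its reads are uncertain.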
